A study of Trichoderma reesei with 12 samples.

Results

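The 836 genes described here are the shortest of the count table, with a Length of at most 300 bases. They were chosen by length alone from 10879 rows, leaving out the first and last 50 rows of each series of identifiers with the same letter, which held another 45 rows of that length. They are compared with the 9214 rows of a Length above 300 and below 5000 away from the same ends, called the longer rows. RNA was sequenced from mycelium of Trichoderma reesei, a filamentous fungus that breaks down plant biomass, after 96 h at 28 °C in minimal medium with cellulose. The 12 libraries were 4 of the sor4 strain (QM6aΔku80Δsor4) in light, 4 of sor4 in darkness, 2 of its parent ku80 (QM6aΔku80) in light and 2 of ku80 in darkness. The ku80 gene, needed for non-homologous end joining, is deleted in both strains, and sor4 in addition lacks the gene of a transporter of the sorbicillinoid (SOR) cluster. Light is given by the sample titles and treatment labels, while the protocol text speaks of darkness for all 12 libraries. No label gives the number of clones or says that replicates were separate cultures, so a p-value here reflects library-to-library spread that may be only technical. The reference table of 9116 genes holds 0 of these identifiers, so genes are given by identifier with no name or function, and no sequence is shown.

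In fungal genomes, short coding genes include those of small secreted proteins such as hydrophobins, which coat spores and hyphae, of small subunits of the ribosome and the respiratory chain, and of small stress proteins. Short entries of an annotation can also be tRNA genes, pieces of longer gene models, or reading frames with no known product, and the table does not say which kind a row is. Filamentous fungi sense blue light through photoreceptors related to the White Collar proteins of Neurospora crassa, and light changes their growth, spore formation and metabolism.

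The library totals were 7844524 to 12027855 counts. Of the 349 short genes with enough counts to be tested, 46 (13.2%) were over 2-fold apart between the ku80 light libraries, against 4 to 9 (1.15% to 2.58%) in pairs of sor4 light libraries. For the longer rows tested, the shares were 6.99% and 0.615% to 1.28%. The same count was 10 to 34 (2.87% to 9.74%) in pairs of sor4 dark libraries and 17 (4.87%) between the ku80 dark libraries. For the longer rows it was 1.61% to 7.42% and 2.27%. Since identifiers have no names, the deleted gene was not checked.

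Short genes were detected less often than longer ones. In 704 of the 836 (84.2%) at least 1 library had a count, against 97.8% of the longer rows, and 132 short genes had no count in any library. The share with at least 10 counts was 33.9% to 37.7% per library for short genes and 79.1% to 83.0% for the longer rows, and was lower for short genes in every library. The filter on low counts was passed by 349 short genes (41.8%) and 7966 longer rows (86.5%). It keeps a row with enough counts in at least as many libraries, of any group, as the smallest group holds. Counts per row are not corrected for length. Per kilobase, 31.8% of short genes and 66.1% of the longer rows had a mean of at least 10 CPM per kilobase (counts scaled to library size and divided by length, averaged over the 4 group means).

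Detection increased with length also within the short genes. Of the 83 rows under 100 bases, 9 (10.8%) passed the filter. The share was 24.6% for the 57 rows from 100 to under 150 bases, 38.8% from 150 to under 200, 50% from 200 to under 250, and 50.6% from 250 to 300. Among the longer rows it was 67.9% up to 600 bases and 93.6% above 1200. Next to the limit of the rule, 27 of 51 rows above 290 and up to 300 bases (52.9%) and 22 of 40 rows above 300 and up to 310 bases (55%) passed.

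**Figure D1:**
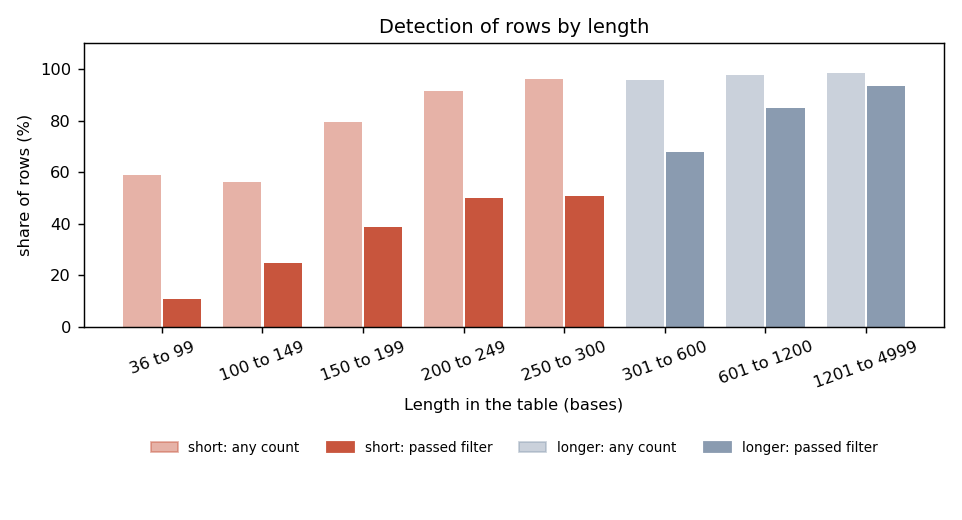
Share of rows (%, y axis) with a count in any library (pale bars) and passing the filter on low counts (full bars), by Length in the table (x axis), for short genes (red) and longer rows (blue-grey). The full bars go from 10.8% in the shortest class to 93.6% in the longest.

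The rows under 100 bases differed from the other short genes in a further respect. Of these 83 rows, 45 (54.2%) had a length that is not a multiple of 3, as a complete coding sequence would be, against 5.26% to 21.5% in the other classes of short genes, 13.4% of the longer rows up to 600 bases and 4.35% of all longer rows. Among the 136 short genes of such lengths, 13 (9.56%) passed the filter, and among the 700 whose length is a multiple of 3 it was 336 (48.0%). The gap remained among the rows of 100 to 300 bases, where 10 of 91 (11%) and 330 of 662 (49.8%) passed.

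Short genes lay in all 7 identifier series and made up 7.47% to 10.8% of the rows of a series. Those of letter F were the least detected: 46 of 120 (38.3%) had no count, against 7.45% to 21.7% in the other letters. The longer rows of letter F also had no count most often, in 60 of 975 (6.15%), against 1.11% to 2.70% elsewhere. W and C suffixes were almost equally common among short genes, with 425 and 411 rows.

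The levels of the short genes that were detected spread widely. Among the 349 tested, the median in a library was 35.5 to 49.3 CPM per kilobase, against 27.6 to 29.0 for the 7966 longer rows tested, and was the higher of both in every library. Since the filter acts on counts, a short row needs a higher level per kilobase to pass, and the comparison is of the rows that passed. The interquartile range in sor4 light replicate 1 was 9.73 to 184 CPM per kilobase for short genes and 9.03 to 65.3 for the longer rows. How reads that overlap a row only in part were counted is not given in the sources used here, and this bears most on values per kilobase of the shortest rows. Short genes made up 7.68% of all rows, and 26 of the 100 rows with the highest mean CPM per kilobase were short genes; without division by length, 3 of the top 100 were.

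The share of a library's counts that fell on short genes was higher in light. It was 7.30%, 7.42%, 7.18% and 6.58% in sor4 light replicates 1 to 4, against 2.89%, 2.50%, 2.48% and 2.87% in sor4 darkness. In ku80 it was 8.43% and 6.43% in light, against 2.63% and 2.34% in darkness. All 6 light libraries lay above all 6 dark libraries. Most of the difference was 1 gene, TrE0391W. Without it the share was 3.16% ± 0.074 in sor4 light (SD, n = 4) and 2.68% ± 0.23 in sor4 darkness (SD, n = 4), and 2.62% ± 0.12 in ku80 light (SD, n = 2) and 2.48% ± 0.20 in ku80 darkness (SD, n = 2). The sor4 light libraries then still lay above the sor4 dark libraries, with 3.05% as the lowest and 2.89% as the highest value, while the ku80 groups overlapped.

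**Figure D2:**
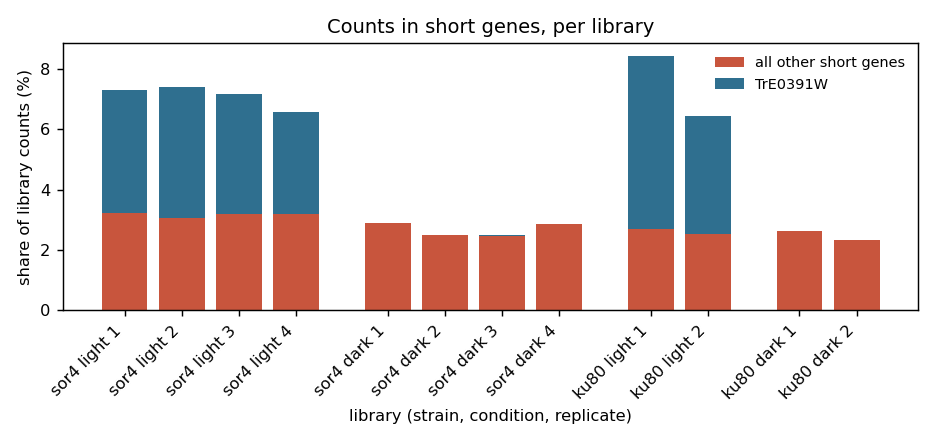
Share of the library's counts (%, y axis) in short genes for each of the 12 libraries (x axis), split into TrE0391W (blue) and all other short genes (red). The light libraries stand at 6.43% to 8.43% and the dark libraries at 2.34% to 2.89%; without TrE0391W the range over all 12 libraries is 2.34% to 3.22%.

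Few genes held most of these counts. In light, TrE0391W alone gave 55.6% of the short-gene signal in sor4 and 64.7% in ku80 (shares of summed group mean CPM). In darkness the first gene was TrC1130C, with 34.6% in sor4 and 32.8% in ku80, and 10 genes were needed for 50% in either strain. The number of genes that gave 90% was 33 in sor4 light and 87 in sor4 darkness, and 28 in ku80 light and 87 in ku80 darkness. The 8 genes with the highest mean CPM per kilobase are described next; 3 of them, TrE0391W, TrC1130C and TrC1160W, were the 3 highest of all 10879 rows on this scale.

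TrE0391W, with a length of 180 bases, had 40113, 42294, 39751 and 33846 CPM in sor4 light, against 2.80, 17.7, 189 and 28.3 CPM in sor4 darkness. In ku80 it had 55554 and 38176 CPM in light, against 31.0 and 19.5 CPM in darkness. Every light library was over 100-fold above every dark library. The log2 fold change of light over darkness was 9.35 (SE 1.17, adjusted p = 4.13e-05) in sor4 and 10.86 (SE 1.75, adjusted p = 0.000489) in ku80, by edgeR's quasi-likelihood test with Benjamini-Hochberg adjustment over the 8939 rows tested, the test used throughout. Without sor4 dark replicate 3, which had the 189 CPM, the value in sor4 was 11.22. Its neighbours in the table, TrE0390W and TrE0392W, did not share this: their log2 fold changes lay between -0.36 and -0.03 in both strains and did not pass the test.

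TrC1130C (261 bases) was the most abundant short gene in darkness. It had 6078, 5819, 6143 and 6478 CPM in sor4 light, against 12155, 6766, 7680 and 10960 CPM in sor4 darkness. The ku80 libraries had 5979 and 3495 CPM in light, against 9544 and 7253 CPM in darkness. It fell in both strains, by 0.62 on the log2 scale in sor4 (SE 0.21, adjusted p = 0.0244, edgeR) and by 0.83 in ku80 (SE 0.29, adjusted p = 0.0398). Both calls are close to the threshold: the sor4 call was lost without sor4 dark replicate 1 or 4, or sor4 light replicate 1, 2 or 3, with log2 fold changes of -0.61 to -0.46. The ku80 call was lost without ku80 dark replicate 1, ku80 light replicate 2 or any sor4 light library, with -0.82 to -0.47. Without ku80 light replicate 1, the log2 fold change in ku80 was -1.26. Over all 21 alternatives, other settings included, the call was lost in 6 for sor4 and in 9 for ku80.

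TrC1160W (171 bases) rose in light with little spread. It had 3773, 3101, 3711 and 3504 CPM in sor4 light, against 353, 292, 348 and 304 CPM in sor4 darkness. In ku80 it had 4105 and 3743 CPM in light, against 428 and 423 CPM in darkness. The log2 fold changes were 3.44 (SE 0.10, adjusted p = 4.1e-10, edgeR) in sor4 and 3.21 (SE 0.14, adjusted p = 2.49e-08) in ku80. The next identifiers, TrC1161W (261 bases) and TrC1162W (162 bases), are short genes too and were named after their values were seen. TrC1161W rose by a log2 fold change of 3.28 in sor4 and 2.81 in ku80 (adjusted p = 1.07e-08 and 1.22e-06, edgeR). TrC1162W rose by 2.99 in sor4 and 2.40 in ku80 (adjusted p = 2.29e-05 and 0.00197, edgeR). In TrC1162W the ku80 light libraries differed, with 844 CPM in replicate 1 and 193 CPM in replicate 2, both above the 100 and 96.6 CPM of ku80 darkness. How reads between such neighbours were assigned is not given in the sources used here.

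The other 5 of the 8 changed less or varied more. TrA1814C (255 bases) rose in sor4, with 1644 to 2437 CPM in light against 110 to 436 CPM in darkness (log2 fold change 2.69, SE 0.50, adjusted p = 0.000785, edgeR). For ku80 the values were 302 and 1089 CPM in light against 212 and 74.1 CPM in darkness, and its rise there (log2 fold change 2.28, adjusted p = 0.0211, edgeR) was not called without ku80 light replicate 2 (1.10) or ku80 dark replicate 2 (1.71), nor with a replicate block (2.08), and was 3.23 without ku80 dark replicate 1 and 2.94 without ku80 light replicate 1. TrB1083C (156 bases) rose in sor4, to 906 ± 171 CPM in light (SD, n = 4) against 343 ± 154 CPM in darkness (SD, n = 4; adjusted p = 0.0109, edgeR). In ku80 its values of 277 and 571 CPM in light overlapped those of 363 and 136 CPM in darkness (adjusted p = 0.291, edgeR). TrE1217W (225 bases) rose by 0.56 in sor4 and 0.81 in ku80 on the log2 scale (adjusted p = 0.0129 and 0.0162, edgeR). The ku80 value rests on ku80 light replicate 2, which had 1264 CPM against 649.7 CPM in replicate 1, and was 0.27 without it; the call was also lost without either ku80 dark library, at 0.78 and 0.83.

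The last of the 8 were the shortest. TrC1378W has 67 bases, a length that is not a multiple of 3. It had 348 ± 96.0 CPM in sor4 light and 444 ± 102 CPM in sor4 darkness (SD, n = 4 each), and 227 and 249 CPM in ku80 light against 292 and 314 CPM in ku80 darkness. It passed the test in neither strain. Its mean level per kilobase was 4974 CPM, the fourth highest of the short genes. TrD0649C (135 bases) had 406 ± 12.3 CPM in sor4 light and 405 ± 21.8 CPM in sor4 darkness (SD, n = 4 each). In ku80 it had 342 and 279 CPM in light against 448 and 423 CPM in darkness and fell by 0.49 on the log2 scale (adjusted p = 0.00312, edgeR). That call was lost in 1 of 21 alternatives, and the log2 fold change was -0.63 to -0.33 with single libraries left out. The difference of the light responses between the strains was 0.49 (SE 0.13) and did not pass the test (adjusted p = 0.691).

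**Figure D3:**
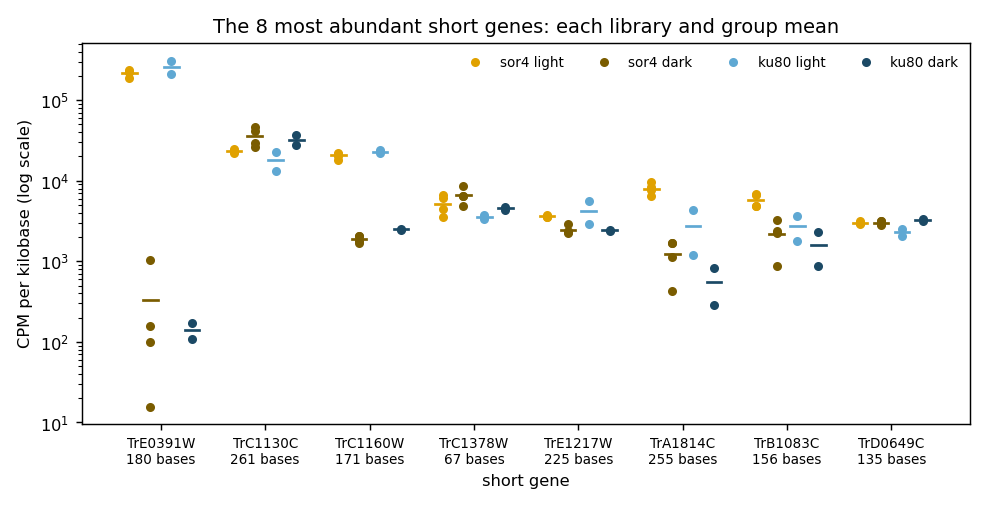
CPM per kilobase (log scale, y axis) of the 8 most abundant short genes (x axis, with their lengths) in each library (points) and as group means (bars), for sor4 light, sor4 darkness, ku80 light and ku80 darkness. TrE0391W and TrC1160W show light and dark groups that lie far apart in both strains, while those of TrD0649C overlap in sor4.

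Light changed many short genes in sor4. Of the 349 tested, 72 rose and 84 fell, which is 20.6% and 24.1%; over all 8939 rows tested, 26.6% rose and 28.8% fell. In all, 156 (44.7%) passed the test, below the 55.4% of all rows. Of the longer rows up to 600 bases, 45.6% passed, so the lower share was not particular to short genes. The median log2 fold change was -0.06 for the short genes tested and -0.01 for all rows tested, while the median of its absolute size was 0.54 and 0.45. Short genes also had larger errors, with a median SE of 0.23 against 0.15 for all rows. The strong rises were more frequent among short genes: 29 (8.31%) rose at least 4-fold, against 3.4% of all rows tested. The filter used all 12 libraries, so a row low in darkness could be tested because it rose in light. Of the 29, 10 came from the 58 short genes tested with under 1 CPM in ku80 darkness. Of 251 such rises of longer rows, 96 came from the 430 tested at that level. Of the falls, 33 (9.46%) were at least 4-fold, against 10% of all rows tested.

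In ku80, 56 short genes rose (16%) and 83 fell (23.8%), against 19.8% and 22.8% of all rows tested. That made 139 (39.8%) in all, against 42.6% over all rows and 35.1% of the longer rows up to 600 bases. The median log2 fold change was -0.19 for short genes and -0.02 for all rows tested. For the longer rows up to 600 bases it was -0.15, so a median below that of all rows was not particular to short genes. For short genes it was -0.08 without either ku80 dark library, -0.10 with library size alone, -0.11 with DESeq2 and 0 without a filter. At least 4-fold rises numbered 28 (8.02%), against 3.87% of all rows, and at least 4-fold falls 23 (6.59%), against 8.77%. The same limit of the filter holds here. Of the 28 rises, 10 came from the 51 short genes tested with under 1 CPM in sor4 darkness. Of 288 such rises of longer rows, 81 came from the 357 tested at that level. The number of calls in ku80 rests on an estimate of spread shared with sor4: in a fit of the 4 ku80 libraries alone, 80 of 308 short genes tested (26.0%) passed. The share of all rows in that fit was not set beside it.

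The strains were measured in separate libraries, and 51 of the 349 short genes rose in both and 55 fell in both. Of all 8939 rows tested, 1573 rose in both and 1819 fell in both. These 106 genes are 67.9% of the calls in sor4 and 76.3% of those in ku80; for the longer rows the shares were 68.2% and 89.4%. No short gene passed in opposite directions (0 of 349), and neither did any row tested (0 of 8939). The log2 fold changes had the same sign in 294 of the 349 (84.2%), against 86.2% of all rows tested. They correlated across the short genes with Pearson r = 0.879 and Spearman rho = 0.839, against 0.913 and 0.884 for the longer rows. This is a description across genes of the same libraries, which are not independent replicates.

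**Figure D4:**
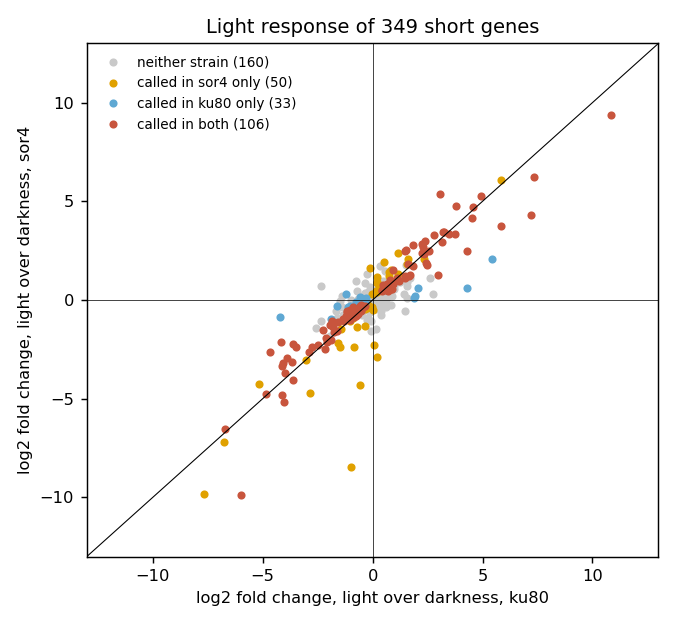
Log2 fold change of light over darkness in ku80 (x axis) and sor4 (y axis) for the 349 short genes tested (points); the line marks equal values. The 106 genes called in both strains (red) lie in the quadrants where both changes have the same sign, and 50 were called in sor4 only and 33 in ku80 only.

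With genes classed by mean CPM over the 4 groups, strong rises in sor4 were more frequent among short genes than among longer rows in every class. Under 1 CPM, 12.7% of short genes rose at least 4-fold and 9.30% of the longer rows did. From 1 to 10 CPM it was 7.76% and 5.53%, and from 10 to 100 CPM 3.05% and 2.06%. Of the 47 short genes with a mean of at least 100 CPM, 9 (19.1%) rose at least 4-fold, against 2.57% of 2062 longer rows. In ku80 the same class had 19.1% and 2.81%, and the same 9 short genes. They are TrA1814C, TrB1084C, TrC1160W, TrC1161W, TrC1162W, TrE0391W, TrE0533C, TrG0101C and TrG0652C, of which TrC1160W, TrC1161W and TrC1162W are adjacent. This mean includes the light libraries, so a rise itself can place a gene in a higher class. Of the 9, TrB1084C, TrC1162W, TrE0391W, TrE0533C and TrG0101C averaged under 100 CPM in darkness in both strains.

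The classes were therefore also set, after the values were seen, by the darkness level of the other strain, whose libraries are not part of the contrast. At 100 CPM or more, 4 of 49 short genes (8.16%) then rose at least 4-fold in sor4, against 0.631% of 2059 longer rows. In ku80 it was 3 of 47 (6.38%), against 0.631% of 2061 longer rows, and the 3 genes, TrA1814C, TrC1160W and TrG0652C, were also among the 4 of sor4, the other being TrC1161W. These shares rest on few genes, of which TrC1160W and TrC1161W are adjacent. With single libraries left out, the log2 fold change of TrA1814C in ku80 was 1.10 to 3.23. From 10 to 100 CPM the shares were 5.51% of 127 short genes and 1.40% of 4006 longer rows in sor4, and 6.72% and 1.88% in ku80. From 1 to 10 CPM they were 6.96% and 5.85% in sor4, and 5.13% and 7.82% in ku80. Under 1 CPM short genes had the lower share in both strains, with 17.2% and 22.3% in sor4, and 19.6% and 22.7% in ku80. Rows this low in darkness could pass the filter through the light libraries, so these shares cannot be compared free of that selection.

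Falls in ku80 were also frequent among the abundant short genes. With a mean of at least 100 CPM over the 4 groups, 22 of 47 short genes (46.8%) fell in ku80, against 24.5% of the longer rows, and 15 of 47 (31.9%) fell in sor4, against 30.2%. Most of these falls were under 2-fold. Falls of at least 2-fold were near the share of the longer rows, with 5 of 47 (10.6%) against 9.65% in ku80 and 10.6% against 9.89% in sor4. At least 4-fold falls in ku80 were 4 of 47 (8.51%), against 4.36%. With classes by the darkness level of the other strain, 30 of 47 (63.8%) fell in ku80, against 30.5%, and 22 of 49 (44.9%) in sor4, against 36.7%. Replicate spread was larger for short genes with a mean of at least 100 CPM, with a median within-group SD of 0.21 on the log2 scale against 0.12 for the longer rows. Whether depth, library composition or the distance between the ku80 light libraries plays a part in this was not tested.

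**Figure D5:**
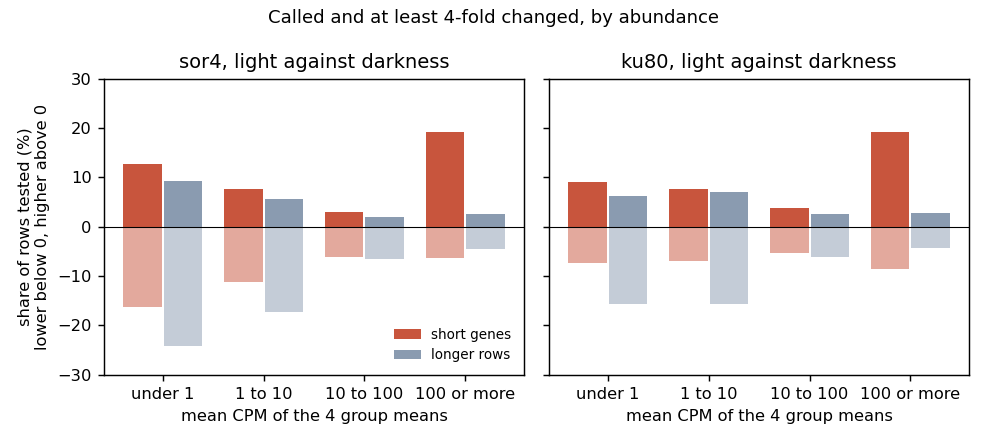
Share of rows tested (%, y axis) that passed the test and changed at least 4-fold, higher in light above 0 and lower in light below 0, by mean CPM (x axis), in sor4 (left) and ku80 (right), for short genes (red) and longer rows (blue-grey). The mean includes the light libraries; at 100 CPM or more, 19.1% of short genes were at least 4-fold higher in light in each strain, against 2.57% and 2.81% of the longer rows.

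Beside TrE0391W, the gene with the largest rise in sor4 by the naming rule was TrB1382C (216 bases). It had 89.7, 81.3, 76.0 and 65.0 CPM in sor4 light, against 2.69, 1.03, 1.82 and 2.31 CPM in sor4 darkness. Its ku80 values were 68.3 and 102 CPM in light, against 1.24 and 4.14 CPM in darkness. It rose by a log2 fold change of 5.29 in sor4 (SE 0.32, adjusted p = 1.14e-07, edgeR) and 4.95 in ku80 (SE 0.43, adjusted p = 5.18e-06), with no overlap between light and dark libraries. The ku80 value was 6.08 without ku80 dark replicate 2 and 4.35 without ku80 dark replicate 1. Its neighbours TrB1381C and TrB1383W had log2 fold changes between -0.04 and 0.08 and did not pass.

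The counterpart in ku80 was TrD0147C (225 bases), with 7.01 and 10.9 CPM in light against 0 and 0.0899 CPM in darkness. That is 160 counts against 1 count, a ratio of 181 with a 95% exact counting interval of 32.0 to 7182 (adjusted p = 0.000223, edgeR). The fitted log2 fold change of 7.21 was 9.46 without ku80 dark replicate 2 and 6.44 without ku80 dark replicate 1. In sor4 it had 2.55 to 7.30 CPM in light against 0 to 0.458 CPM in darkness (log2 fold change 4.31, SE 0.60, adjusted p = 9.28e-05, edgeR). Its neighbours, both longer, changed in different directions. TrD0146W, before it, fell, with a mean of 0.0734 CPM in sor4 light and 78.4 CPM in sor4 darkness. TrD0148W, after it, rose in both strains (adjusted p = 0.00299 in sor4 and 0.00839 in ku80, edgeR). Its means were 11.97 CPM in sor4 light and 5.16 CPM in sor4 darkness, and 17.4 CPM in ku80 light and 6.11 CPM in ku80 darkness.

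TrF0715W (102 bases) was named by the rule for its fall in both strains. It had 0 counts in each sor4 light library, against 22.6, 12.8, 5.05 and 7.35 CPM in sor4 darkness, which makes it at least 156-fold lower when 3 counts are taken as the upper limit for the whole light group (adjusted p = 7.63e-05, edgeR). In ku80 it had 3 counts in light, all in replicate 1, against 227 in darkness, a ratio of 67.0 (95% exact counting interval 22.6 to 327, adjusted p = 0.00218). The fitted log2 fold change there was -5.97, and -9.75 without ku80 light replicate 1, which leaves 0 counts in light, and -5.16 without ku80 light replicate 2. TrF0714W, the row before it, did not pass the test in either strain. Such intervals and limits describe counting error alone, because without molecular identifiers reads are not independent molecules.

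TrC1253C (294 bases) had 0 counts in all 6 light libraries. In sor4 darkness it had 5.38, 37.0, 2.52 and 0.684 CPM, so that replicate 2 gave 323 of the 406 counts of the group. Without that library the call was kept (adjusted p = 0.00362, edgeR). It was at least 138-fold lower in sor4 light with the same limit (adjusted p = 0.00845, edgeR). In ku80 darkness it had 3.41 and 1.71 CPM, both above the 0 counts in light. The fall there had a large error and did not pass (log2 fold change -7.67, SE 3.86, adjusted p = 0.15, edgeR), so it is not shown to be absent.

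TrA1903C (291 bases) fell in both strains and was the more abundant of these genes in darkness. It had 5.84, 5.56, 4.31 and 8.58 CPM in sor4 light, against 210, 169, 131 and 158 CPM in sor4 darkness. The ku80 libraries had 6.91 and 4.50 CPM in light, against 156 and 173 CPM in darkness. The log2 fold changes were -4.78 in sor4 (SE 0.22, adjusted p = 1.49e-08, edgeR) and -4.83 in ku80 (SE 0.32, adjusted p = 6.37e-07). The rows on either side, TrA1902W, which is also a short gene, and TrA1904W, fell in both strains.

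Neighbouring identifiers often moved with short genes. Of the 71 short genes that rose in sor4 and had a tested neighbour, 49 (69.0%) had one that rose too, against 51.7% of 2107 longer rows, and of the 83 that fell, 50 (60.2%) had one that fell, against 50.1%. In ku80 the shares were 60.0% of 55 and 42.9% for rises and 50% of 82 and 45.4% for falls. The Spearman correlation between a gene's log2 fold change and the mean of its neighbours in sor4 was 0.418 over 343 short genes and 0.241 over 7764 longer rows, while Pearson r was 0.381 and 0.364. In ku80, Spearman's rho was 0.373 and 0.220 and Pearson r 0.309 and 0.323; these are descriptions across genes. The strand setting of the counting is not given in the sources used here, so reads of overlapping or antisense neighbours cannot be told apart. Among the short genes, 180 stood in 78 runs of adjacent short genes, 63 of them pairs, and the longest had 6 members, of which 0 were tested.

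Between the strains, no short gene passed the test. In darkness 0 of 349 passed, against 0.0336% of all rows tested, with 0.25 as the lowest adjusted p. An unadjusted p under 0.05 was found for 19 short genes (5.44%), against 7.75% of all rows, and DESeq2 called 1 (TrB1136C, lower in sor4) and limma-voom 0. In light 0 of 349 passed in edgeR, against 0% of all rows, with 0.249 as the smallest adjusted p. There, 53 short genes (15.2%) had an unadjusted p under 0.05, against 8.17% of all rows, DESeq2 called 9 and limma-voom 0. The count in light depends on the ku80 light libraries, but leaving out either of them leaves 1 library in that group. Calls under the alternatives were not set beside all rows, so whether they are particular to short genes was not tested. The median log2 fold change of sor4 over ku80 in light was 0.12 for the short genes tested.

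For the difference of the light responses, sor4 minus ku80, 0 of 349 short genes passed in edgeR, against 0% of all rows tested, with 0.691 as the lowest adjusted p. An unadjusted p under 0.05 was found for 30 (8.60%), against 6.59% of all rows. DESeq2 called 1 (TrA1902W) and limma-voom 0, also without a share of all rows beside them. The median error of this difference was 0.40 on the log2 scale for short genes and 0.25 for all rows tested. A change that did not pass is not shown to be absent. TrA1948C (282 bases), named after its values were seen, shows how a single library enters. It had 0.490 to 1.59 CPM in sor4 light against 58.9 to 539 CPM in sor4 darkness and fell there (adjusted p = 0.000214, edgeR). In ku80 it had 0.768 and 105 CPM in light against 151 and 57.9 CPM in darkness, and the difference of responses did not pass (adjusted p = 0.691, edgeR). Without ku80 light replicate 1 it passed, at -8.49 on the log2 scale (adjusted p = 0.0251, edgeR), and DESeq2 called the gene between strains in light, at -5.88 (adjusted p = 0.00859).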

How the data were processed

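RNA of 12 libraries was made with a stranded kit after rRNA depletion, per the labels' protocols. The deposited table holds raw counts per row and library, with reads aligned with HISAT2 2.2.1 per the submitters' processing notes; counting settings, build and annotation were not given in the sources used here. The Length column is used as deposited by the authors. edgeR 4.0.16 (R 4.3.3) was run on these counts with TMM scaling, filterByExpr and 1 quasi-likelihood fit of 4 group means over 12 libraries; a row was called at a Benjamini-Hochberg adjusted p below 0.05 over 8939 rows. CPM used TMM-scaled library sizes, and CPM per kilobase divided them by Length. The script was tested on simulated data. DESeq2 1.42.0, limma 3.58.1, other filters, scalings and length limits, and leaving out each library were alternatives. Replicate numbers did not pair the samples.

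Named genes were the 8 with the highest mean CPM per kilobase, and per light contrast and direction the 2 called genes with the largest fold change, with groups that did not overlap and 5 CPM or more in the higher one. The genes and lists were chosen with earlier results of these data known. Light or darkness was taken from each sample's own title and treatment label; the protocol text of all samples, light ones included, speaks of darkness, and this conflict in the labels was not resolved.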

Additional observations from a re-analysis of the deposited data

Results flagged for a closer look

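Within groups of 4 libraries, 36 sets of values were searched for a library that lay apart, and 3 were found, all in sor4 darkness; chance marks about 1 in 20 sets. The share of short genes with at least 1 count was 64.4% in replicate 3, while replicates 1, 2 and 4 had 61.5% to 61.8%. TrE0391W had 189 CPM in replicate 3, against 2.80 to 28.3 CPM in the others. TrC1253C had 37.0 CPM in replicate 2, against 0.684 to 5.38 CPM in the others.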

How the results depend on the processing

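Over the alternatives, 551 results for named genes kept their direction and their side of the threshold, 24 lost the call, 6 gained it and 5 changed sign. The sign changes were all of TrD0649C in sor4, which was not called: -0.013 with median-of-ratios size factors and with DESeq2, -0.0012 with a stricter filter, and -0.021 to 0.030 when single libraries were left out. With single libraries left out, short genes called in light numbered 138 to 177 in sor4 and 96 to 150 in ku80, between strains 0 to 0 in darkness and 0 to 20 in light, and 0 to 7 for the difference of responses. DESeq2 called 1 between strains in darkness, 9 in light and 1 for the difference. Fitted alone, ku80 gave 80. None of these counts was set beside the share of all rows in the same fit. With Length at most 200, 47 of 104 genes tested (45.2%) were called in sor4 and 49 of 104 (47.1%) in ku80. The shares of all rows tested in that fit were 55.4% and 42.6%, so the ku80 share then lay above that of all rows. The median log2 fold change in ku80 was -0.10 with library size alone, 0 without a filter, -0.11 with DESeq2 and -0.196 to -0.082 with single libraries left out. The share passing the filter was 84.2% with no filter, 28.9% with a stricter one, 29.8% for Length at most 200 and 48.0% for multiples of 3. For Length at most 200, the share of counts was 4.93% in sor4 light, 0.506% in sor4 darkness, 5.71% in ku80 light and 0.492% in ku80 darkness, and CPM per summed kilobase 967, 102, 1110 and 101 in the same order. For multiples of 3 it was 469 in sor4 light, 175 in sor4 darkness and 165 in ku80 darkness. Without TrE0391W the values were 3.16% and 181 CPM per summed kilobase in sor4 light, and 2.62% and 148 in ku80 light.

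With the replicate number as a block, 145 short genes were called in sor4 and 121 in ku80, and 0 in each strain contrast and in the difference. The deviations of same-numbered libraries correlated at -0.12 in ku80, and with those numbers crossed, chosen after seeing the data, 141 and 119 were called. Of the 836 short genes, 487 had too few counts to be tested at this depth.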

Other observations

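A few short genes were seen in 1 light condition only. With at least 10 counts in 1 condition and 0 in all libraries of the other, 3 short genes were seen in light only (TrB1263C, TrE0914W and TrG0262C) and 9 in darkness only, which is 0.359% and 1.08% of 836. Of the longer rows, 0.119% were seen in light only and 1.18% in darkness only.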
